A study of Homo sapiens with 12 samples.

Results

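The genes described here are 52 human genes of the G2/M transition and mitosis, out of 26420 gene symbols used. They were chosen by name as a list of cyclins, mitotic kinases, kinetochore and checkpoint proteins, kinesins and related factors. The rule uses no measured value, but the list was drawn up with earlier results of these data known. Their levels were followed in a prostate carcinoma line (PC3) and an osteosarcoma line (MG63), both of human origin, after depletion of either of a pair of related RNA-binding proteins, LARP4A and LARP4B. The series title names growth and spread of these tumour types as the subject of the study.

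Each line, labelled wild type, was transfected with Lipofectamine RNAiMAX in medium without antibiotics. The final siRNA concentration was 10 nM. The groups of each line were siControl (a non-targeting siRNA), siLARP4A and siLARP4B, and RNA was taken after 72 h. There were 2 biological replicates per group, so 12 libraries of poly(A)-selected RNA in 6 groups. The labels used here do not give the siRNA sequences or how many were used per target, so an effect of an siRNA on its target and an effect on other RNAs cannot be told apart.

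Cells enter mitosis when the kinase CDK1, bound to A-type and B-type cyclins, is switched on by CDC25 phosphatases. PLK1 and the Aurora kinases act beside it. Most genes of this programme are transcribed in G2 and mitosis and kept low in G0 and early G1. In quiescent cells the DREAM complex, built on a core called MuvB, represses them through promoter elements known as CHR, and in cycling cells MuvB binds B-MYB (MYBL2) and then FOXM1 to activate them. The factor NF-Y, which binds the sequence CCAAT, is a further activator of many of them. In a bulk sample, fewer cells in G2 or mitosis and less RNA per such cell cannot be told apart.

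The library totals behind the deposited values were 16950119 to 24864977 fragments. LARP4, the gene of LARP4A, was at 19 and 19.4 FPKM (fragments scaled to the length of the gene model and to the library total) in PC3 siControl and at 2.36 and 2.47 in siLARP4A. In MG63 it was at 8.18 and 8.5 FPKM in siControl and at 2.11 and 2.19 in siLARP4A. LARP4B was at 7.02 and 7.18 FPKM in PC3 siControl and at 1.35 and 1.26 in siLARP4B, and in MG63 at 6.64 and 6.77 against 1.89 and 2.2. Each target was thus lowest in the group labelled for it, in both lines. LARP4 was also higher in MG63 siLARP4B, at 10.6 and 11.5 FPKM, a log2 fold change of 0.43 (edgeR adjusted p = 8.56e-06), while in PC3 siLARP4B it was at 18.8 and 19 FPKM (log2 fold change -0.03, edgeR adjusted p = 0.712). Epithelial markers summed to 1110 to 1430 FPKM in PC3 and 64.1 to 87 in MG63, and mesenchymal and osteoblast markers to 40.9 to 63.9 in PC3 and 2910 to 3700 in MG63. The osteoblast factor RUNX2 was below 1 FPKM in every library, and of the prostate luminal markers only HOXB13 reached 1 FPKM in PC3. Replicates varied more than counting error, with a chi-square per degree of freedom of 1.65 to 6.44. The 2 widest pairs were PC3 siLARP4A and MG63 siLARP4B. In MG63 siLARP4B, only 3 of the 52 genes were higher in replicate 1 than in replicate 2.

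After siLARP4B in PC3, nearly the whole list was lower than in siControl. Of the 52 genes, 51 were lower than in siControl at an edgeR adjusted p under 0.05 and none was higher. Over all 15673 tested genes 20.9% were lower and 24.8% were higher in this comparison. The median log2 fold change of the 52 genes was -1.11, with quartiles of -1.23 and -0.96, against 0.04 for all tested genes. At least a 2-fold fall past the same threshold was found for 35 of the 52 genes and for 2.74% of all tested genes. The p-values measure the spread between these libraries, 2 per group, with each gene's variance estimate drawn towards that of all genes.

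**Figure D1:**
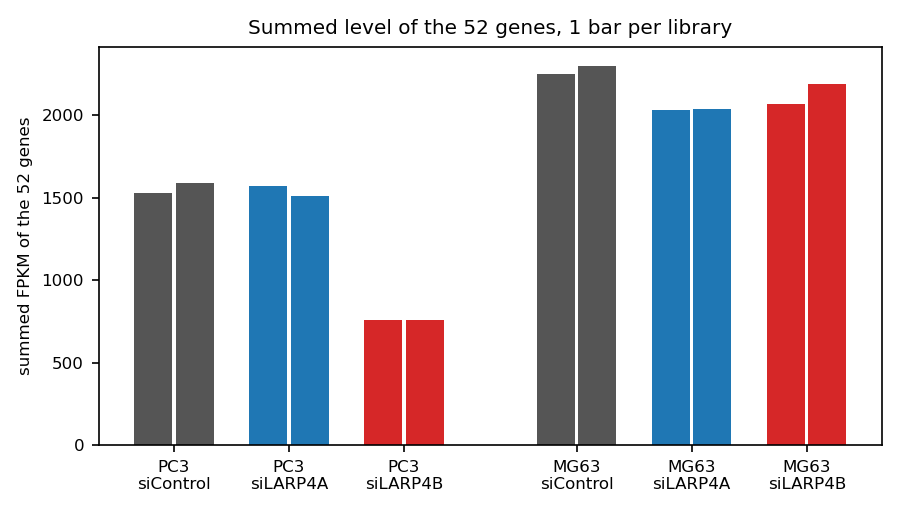
Summed FPKM of the 52 genes (vertical axis) in each of the 12 libraries, 1 bar per library, with the 6 groups along the horizontal axis. The PC3 siLARP4B bars stand at 761 and 758 FPKM against 1530 and 1590 in PC3 siControl, and the MG63 bars lie between 2030 and 2300.

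The summed level of the list shows the same contrast per library. In PC3 the 52 genes summed to 1530 and 1590 FPKM in siControl, 1570 and 1510 in siLARP4A, and 761 and 758 in siLARP4B. They took 0.529% and 0.548% of the tested fragments in PC3 siControl and 0.271% and 0.273% in siLARP4B. In MG63 the sums were 2250 and 2300 FPKM in siControl, 2030 and 2040 in siLARP4A, and 2070 and 2190 in siLARP4B. Both PC3 siLARP4B libraries therefore lay far below all others, and the MG63 depleted libraries lay below both MG63 controls by a small margin. In siControl the middle gene of the list was at 21.2 FPKM in PC3 and 29.0 in MG63. The highest was UBE2C at 136 FPKM in PC3 and PTTG1 at 161 in MG63.

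Promoter windows of these genes were searched for the elements through which the programme is known to be switched. The 6 stretches shown span both elements, either alone and neither, within the 100 bases printed. None of them comes from a window without any match. RefSeq (GRCh38.p14) gave a promoter window, from 250 bases before to 50 bases after the gene's start, for 44 of the 52 genes, and the start nearest to the deposited gene model was taken. AURKA, FOXM1, BUB3, TTK, BIRC5, TPX2, RACGAP1 and UBE2C had no entry. The motifs searched on both strands were CCAAT and, for the CHR element, TTTGAA or TTCGAA, and a match of one may share an end base with a match of the other. Of the 44 windows, 32 (72.7%) held CCAAT against 34.6% of all 34961 windows. Each member gave 1 window, whereas all windows include several for some genes and were not filtered on expression, so the shares are not strictly alike. A CHR match was present in 32 of the 44 (72.7%) against 16.3% of all windows, and both motifs in 24 (54.5%) against 6.36%. At least 2 CCAAT matches were found in 19 windows (43.2%) against 10.7% of all. Each stretch below is the last 100 bases before the RefSeq start, 5′ to 3′ on the gene's strand. Capitals mark the CCAAT matches, which read ATTGG where they lie on the other strand, and the CHR matches. They are CCNB2 at chr15:59105046-59105145 (+), PLK1 at chr16:23678789-23678888 (+), CDC20 at chr1:43358881-43358980 (+), NCAPG at chr4:17810879-17810978 (+), KIF20A at chr5:138179012-138179111 (+) and CDC25B at chr20:3795689-3795788 (+).
CCNB2: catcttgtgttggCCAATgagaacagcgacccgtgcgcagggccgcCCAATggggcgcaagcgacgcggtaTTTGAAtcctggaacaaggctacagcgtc
PLK1: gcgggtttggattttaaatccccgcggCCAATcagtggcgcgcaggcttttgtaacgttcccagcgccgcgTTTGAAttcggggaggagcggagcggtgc
CDC20: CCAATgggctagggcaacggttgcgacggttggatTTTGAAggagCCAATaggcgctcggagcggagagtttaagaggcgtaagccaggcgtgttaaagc
NCAPG: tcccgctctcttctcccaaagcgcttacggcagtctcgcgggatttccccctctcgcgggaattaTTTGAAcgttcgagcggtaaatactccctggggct
KIF20A: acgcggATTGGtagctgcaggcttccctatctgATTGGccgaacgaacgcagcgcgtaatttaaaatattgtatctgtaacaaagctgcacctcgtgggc
CDC25B: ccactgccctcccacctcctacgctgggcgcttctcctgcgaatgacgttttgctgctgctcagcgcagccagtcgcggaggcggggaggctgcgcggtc
CCNB2, PLK1 and CDC20 hold both motifs in this stretch, NCAPG holds only TTTGAA and KIF20A only CCAAT, each of its matches on the other strand. CDC25B has neither in these 100 bases and a CCAAT match further upstream, at -169. The fold changes in PC3 siLARP4B did not follow these classes closely. The median log2 fold change was -1.14 for the 24 genes with both motifs, -1.14 for the 8 with a CHR match alone, -1.04 for the 8 with CCAAT alone, and -1.08 for the 4 with neither, which were CDC25C, MYBL2, CENPE and KIF2C. A match is a run of letters in a window, not a measured binding site, and binding was not measured in these libraries. Variants of the motifs were not searched, nor were the further windows of genes with several, such as CDC25C with 4. A missing match therefore does not show that the element is absent.

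**Figure D2:**
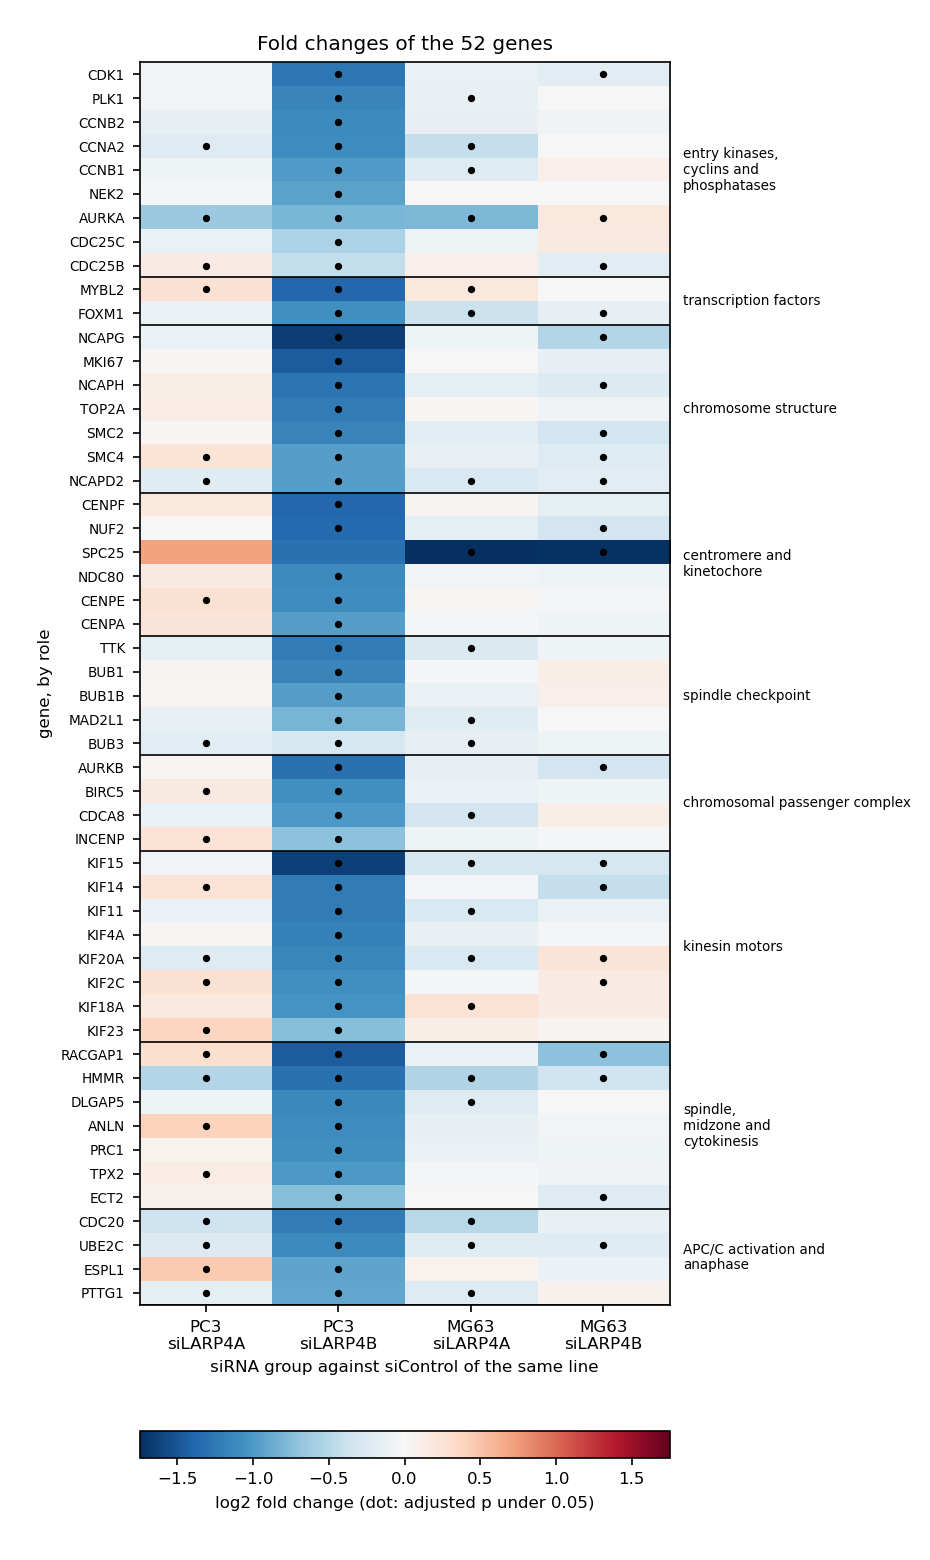
Colour map of log2 fold change of the 52 genes (rows, by role) in the 4 comparisons with siControl (columns), where blue is lower, red is higher and a dot marks an edgeR adjusted p under 0.05. The PC3 siLARP4B column is blue in every row, from -1.65 to -0.29, with a dot for 51 genes, and the other columns hold both colours.

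The genes that start mitosis all fell in PC3 siLARP4B, 9 of 9 in the group of entry kinases, cyclins and phosphatases. CDK1, the kinase that drives entry into mitosis, was at 60.3 and 67.0 FPKM in siControl and at 25.7 and 27.1 in siLARP4B. Neither depleted library came near a control, and the log2 fold change was -1.27 (SE 0.072, edgeR adjusted p = 4.25e-12). Its partner cyclin B1, CCNB1, was at 53.6 and 53.7 FPKM in siControl and at 28.1 and 26.1 in siLARP4B, a log2 fold change of -0.99 (SE 0.057, edgeR adjusted p = 5.20e-12). CCNB2, a further B-type cyclin, was at 23.8 and 22.7 FPKM against 10.49 and 11.1, and CCNA2, the A-type cyclin of S and G2 phase, at 23.5 and 24.3 against 11.3 and 11.1. These cyclins moved alike, with log2 fold changes of -1.11 for CCNB2 and -1.10 for CCNA2. PLK1, the Polo-like kinase of centrosome maturation and mitotic entry, was at 49.3 and 53.1 FPKM in siControl and 22.98 and 22.97 in siLARP4B, a log2 fold change of -1.16 (SE 0.053, edgeR adjusted p = 1.57e-13).

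The kinase AURKA, which acts at spindle poles, was at 43.7 and 45.8 FPKM in PC3 siControl and at 25.4 and 26.1 in siLARP4B. It fell by 0.80 on the log2 scale, a smaller step than CDK1 or PLK1. NEK2, a kinase of centrosome separation, fell by 0.94 on the log2 scale. The phosphatases that activate CDK1 moved least in this group. CDC25B was at 81.9 and 78.9 FPKM in siControl and at 58.1 and 61.2 in siLARP4B, a log2 fold change of -0.43 (SE 0.049, edgeR adjusted p = 2.08e-07). CDC25C was low in PC3, at 3.41 and 3.24 FPKM in siControl and 2.37 and 2.18 in siLARP4B, a log2 fold change of -0.55. The span of CDC25C overlaps the opposite-strand gene FAM53C by 785 bases. Over the 12 libraries FAM53C has 13864 fragments in all, against 3070 for CDC25C. How strand was handled in counting is not given in the sources used here, so the part of FAM53C reads in the CDC25C values was not tested.

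Both transcription factors on the list fell in PC3 siLARP4B as well. MYBL2, the B-MYB partner of MuvB, was at 46.5 and 47.7 FPKM in siControl and at 18.2 and 18.4 in siLARP4B. Its log2 fold change was -1.37 (SE 0.051, edgeR adjusted p = 7.45e-15), to 38.8% of the control. FOXM1 was at 29.4 and 30.2 FPKM in siControl and at 14.6 and 13.6 in siLARP4B, a log2 fold change of -1.08 (SE 0.056, edgeR adjusted p = 1.11e-12). In both genes the depleted libraries lay well apart from the controls.

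The 7 genes of chromosome structure all fell, with a median log2 fold change of -1.23. NCAPG, a condensin subunit, gave the largest fall of the 52 genes. It was at 13.0 and 12.9 FPKM in siControl and at 4.27 and 4.01 in siLARP4B, 31.9% of the control, with a log2 fold change of -1.65 (SE 0.070, edgeR adjusted p = 4.75e-14). Its fellow condensin subunits fell less far, NCAPH by 1.28, SMC2 by 1.17, SMC4 by 0.97 and NCAPD2 by 0.96 on the log2 scale. MKI67, the Ki-67 protein that coats mitotic chromosomes, was at 19.2 and 21.8 FPKM in siControl and at 7.29 and 7.79 in siLARP4B, a log2 fold change of -1.45 (SE 0.14, edgeR adjusted p = 1.50e-08). TOP2A, the topoisomerase that untangles sister chromatids, was at 46.5 and 47.3 FPKM against 20.04 and 20.1, a log2 fold change of -1.23 (SE 0.059, edgeR adjusted p = 3.51e-13).

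**Figure D3:**
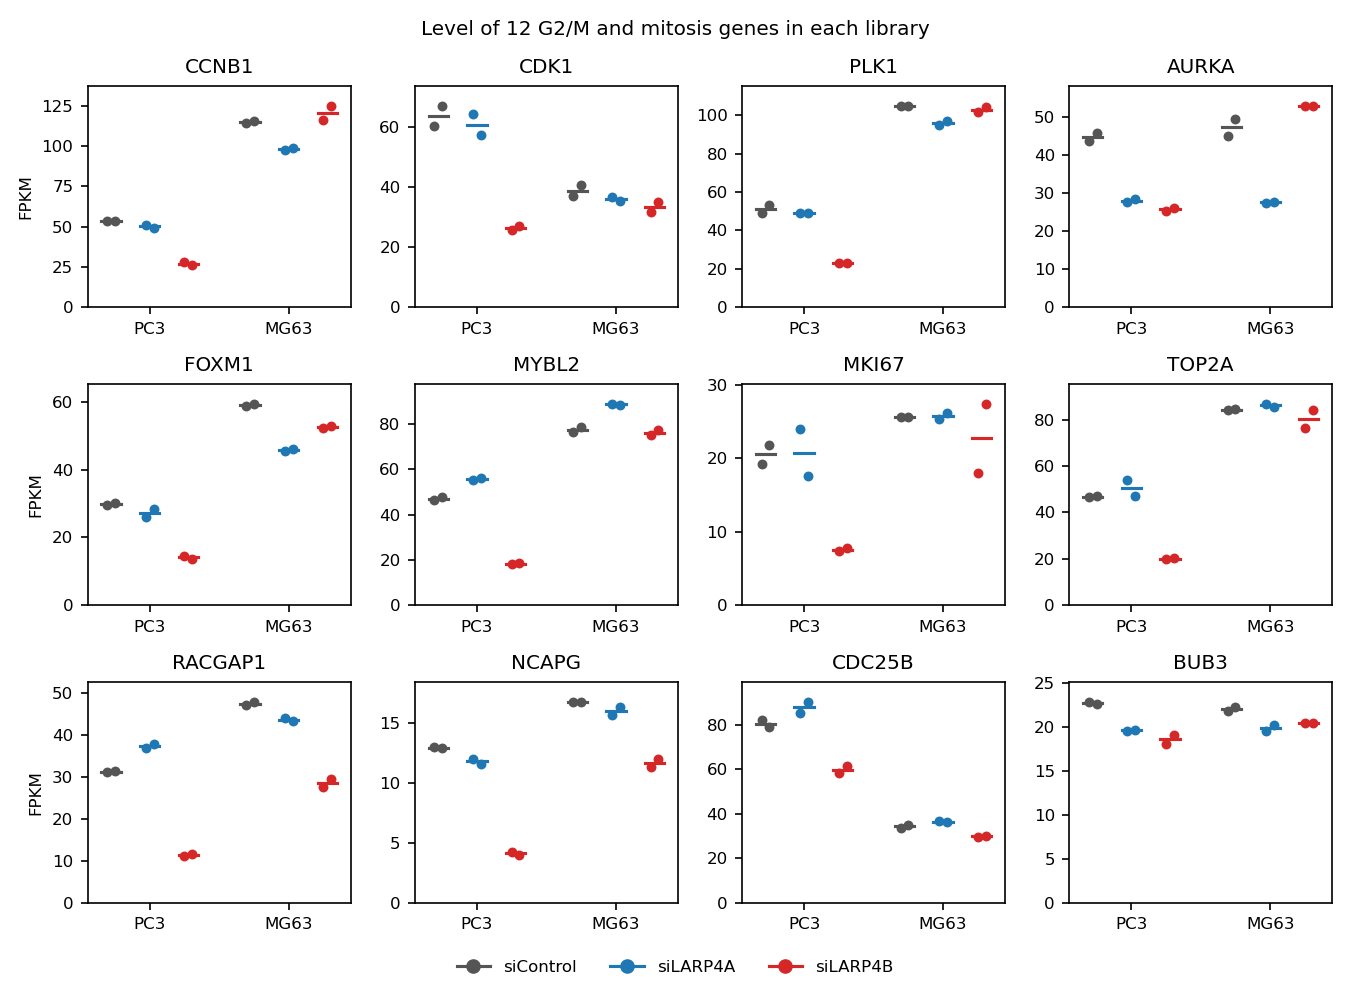
FPKM (vertical axis, from 0) of 12 genes in each library, with points for the libraries and a line for the mean of each siRNA group, PC3 on the left and MG63 on the right of each panel. In PC3 the siLARP4B points of CDK1, PLK1, MYBL2 and NCAPG lie far under the controls, while AURKA is low after either siRNA in PC3 and only after siLARP4A in MG63.

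Of the 6 centromere and kinetochore genes, 5 fell in PC3 siLARP4B. CENPF, a large protein of the outer kinetochore, was at 17.9 and 19.8 FPKM in siControl and at 7.25 in each siLARP4B library, a log2 fold change of -1.38. NUF2 and NDC80, subunits of the complex that binds microtubules, fell by 1.36 and 1.12 on the log2 scale. The kinetochore motor CENPE fell by 1.09 and the centromeric histone CENPA by 0.96. SPC25, a further subunit of the NDC80 complex, did not pass the test, with a log2 fold change of -1.30 (SE 1.35, edgeR adjusted p = 0.458). Its row on chromosome 2 held only 237 fragments over the 12 libraries, and 472 more stood on a row of the same symbol on an alternate sequence of that chromosome. With both rows summed, an alternative chosen after seeing the data, its log2 fold change in PC3 siLARP4B was 0.11 (edgeR adjusted p = 0.927). The summed fragments were 14 and 25 in PC3 siControl, 44 and 142 in siLARP4A, and 14 and 27 in siLARP4B. The split between the rows differed between replicates, so the SPC25 values below are given for the chromosome 2 row and for the sum.

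The spindle checkpoint genes, which delay anaphase until chromosomes are attached, all fell, 5 of 5. TTK, the kinase at the top of the checkpoint, fell by 1.22 on the log2 scale, BUB1 by 1.16, BUB1B by 0.96 and MAD2L1 by 0.81. BUB3 moved least of the 51 genes. It was at 22.9 and 22.6 FPKM in siControl and at 18.1 and 19.1 in siLARP4B, 81.6% of the control, with a log2 fold change of -0.29 (SE 0.048, edgeR adjusted p = 3.01e-05). The chromosomal passenger complex, which corrects faulty attachments, fell as 4 of 4 genes. Its kinase AURKB was at 21.9 and 20.6 FPKM in siControl and at 8.58 and 8.65 in siLARP4B, a log2 fold change of -1.30. The subunits BIRC5 (survivin), CDCA8 (borealin) and INCENP fell by 1.07, 1.00 and 0.72. INCENP, the scaffold of the complex, therefore fell least and AURKB most.

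All 8 kinesin motors fell, with a median log2 fold change of -1.16. KIF15, a motor of spindle bipolarity, was at 7.50 and 7.43 FPKM in siControl and at 2.43 and 2.39 in siLARP4B, 32.3% of the control and next after NCAPG in size. KIF11, the main motor of spindle pole separation, fell by 1.22 on the log2 scale and KIF20A, a motor of cytokinesis, by 1.14. KIF23, the motor subunit of centralspindlin, fell least in this group, by 0.75. Its centralspindlin partner RACGAP1 fell much further. RACGAP1 was at 31.1 and 31.4 FPKM in siControl and at 11.2 and 11.7 in siLARP4B, a log2 fold change of -1.46 (SE 0.058, edgeR adjusted p = 1.64e-14).

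The other 6 genes of the spindle, midzone and cytokinesis group fell too, from HMMR, a spindle protein, at -1.30 to ECT2, the exchange factor of the cleavage furrow, at -0.75 (log2 fold changes). DLGAP5 and TPX2, which build spindle microtubules, were at -1.13 and -1.01. The furrow protein ANLN was at -1.10 and PRC1, which bundles midzone microtubules, at -1.08. The 4 genes of APC/C activation and anaphase fell as well. CDC20, the activator of this ubiquitin ligase, was at 71.7 and 78.7 FPKM in siControl and at 34.3 and 30.6 in siLARP4B, a log2 fold change of -1.22. UBE2C, its ubiquitin-conjugating enzyme, fell by 1.11, ESPL1 (separase) by 0.92 and PTTG1 (securin) by 0.91 on the log2 scale. All 51 genes past the threshold in PC3 siLARP4B passed it under every alternative setting that was run.

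**Figure D4:**
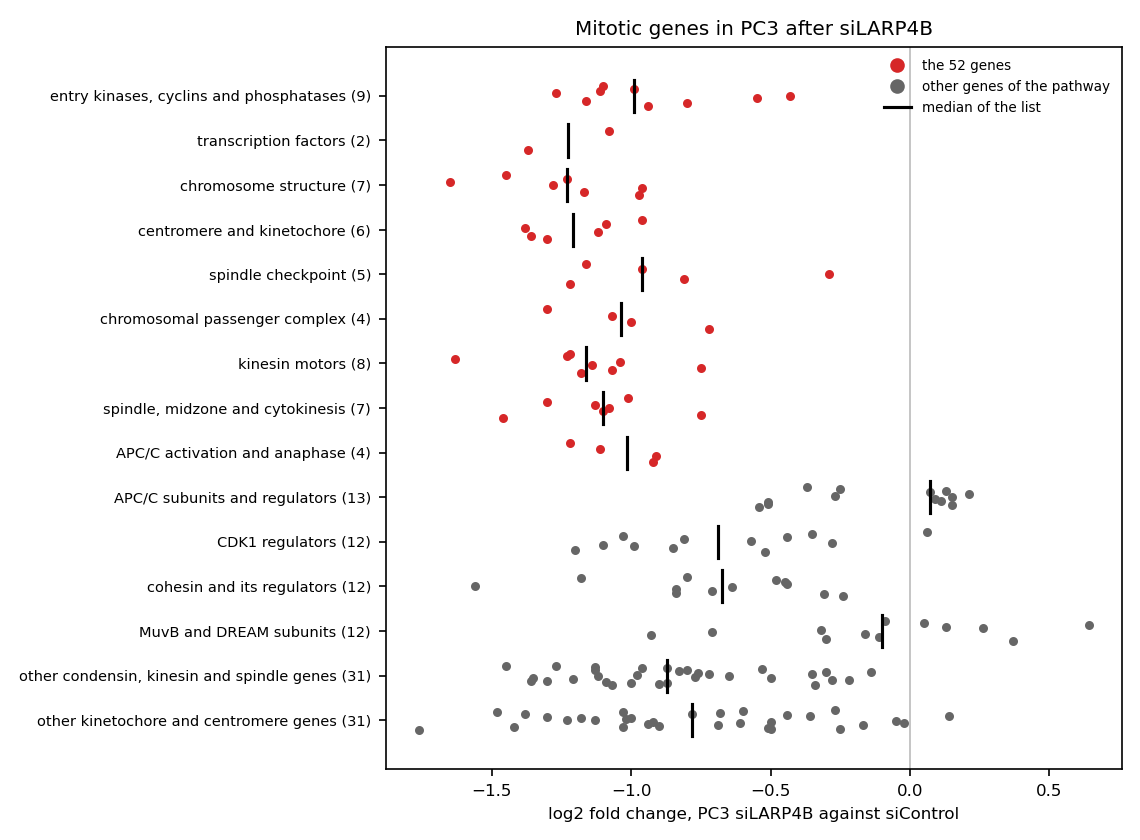
Log2 fold change in PC3 siLARP4B against siControl (horizontal axis) of the 52 genes by role (red) and of 111 other genes of the same pathway by list (grey), with a black line at each list's median and the number of genes in brackets. All red points lie left of 0, as do most grey points apart from the APC/C subunits, with a median of 0.07, and the MuvB and DREAM subunits, with a median of -0.10.

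Other genes of the pathway were taken from lists of 114 genes, of which 111 were tested. In PC3 siLARP4B, 87 of them were lower and 4 higher, with a median log2 fold change of -0.64. Over all tested genes 20.9% were lower and 24.8% higher. All 12 cohesin genes and regulators fell. Of the other kinetochore and centromere genes 25 of 31 were lower, and of the other condensin, kinesin and spindle genes 29 of 31, with none higher in either list. The lowest of all was ZWINT, a kinetochore protein that recruits the RZZ complex, with a log2 fold change of -1.76 (SE 0.058, edgeR adjusted p = 1.40e-15). SGO1, the protector of centromeric cohesion, was at -1.56 and the centromere protein CENPI at -1.48. The core APC/C subunits and regulators were mixed, with 6 of 13 lower and 1 higher and a median of 0.07. The MuvB and DREAM subunits were mixed too, with 5 of 12 lower and 3 higher. Those 3 were E2F5 at 0.64, TFDP2 at 0.37 and LIN52 at 0.26 (log2 fold changes), which encode an E2F factor, an E2F partner and a MuvB subunit.

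In PC3, siLARP4A moved members in both directions. It left 9 of the 52 genes lower and 13 higher than siControl, with 30 not past the threshold. All tested genes were lower in 16.9% of cases and higher in 19.5%, so these shares of the list were near the background. The median log2 fold change was 0.03 for the list and 0.03 for all tested genes. AURKA moved most among the called genes, from 43.7 and 45.8 FPKM in siControl to 27.7 and 28.5 in siLARP4A, a log2 fold change of -0.65 (SE 0.055, edgeR adjusted p = 6.42e-09). HMMR was at 20.1 and 19.9 FPKM against 14.6 and 13.0, a log2 fold change of -0.51 (SE 0.071, edgeR adjusted p = 6.41e-06). CDC20 was at 71.7 and 78.7 FPKM against 59.1 and 56.9, a log2 fold change of -0.36. The depleted libraries of these 3 genes did not overlap the controls. CCNA2, NCAPD2, BUB3, KIF20A, UBE2C and PTTG1 were the other genes that fell, by 0.16 to 0.24 on the log2 scale.

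The 3 largest rises in PC3 siLARP4A were those of ESPL1, ANLN and KIF23. ESPL1 was at 8.30 and 8.16 FPKM in siControl and at 10.97 and 11.4 in siLARP4A, a log2 fold change of 0.46 (SE 0.063, edgeR adjusted p = 6.37e-06). ANLN was at 42.3 and 44.2 FPKM against 59.2 and 53.7, a log2 fold change of 0.40 (SE 0.054, edgeR adjusted p = 4.30e-06). KIF23 was at 15.4 in each control and at 20.6 and 18.8, a log2 fold change of 0.37, and its partner RACGAP1 was at 0.28. MYBL2 rose from 46.5 and 47.7 FPKM to 55.1 and 56.2, a log2 fold change of 0.26. Several of the best known members did not pass the test. The log2 fold changes were -0.05 for CDK1, -0.08 for CCNB1, -0.05 for PLK1, -0.14 for CCNB2, -0.12 for FOXM1, 0.04 for MKI67 and 0.13 for TOP2A.

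The siLARP4A replicates of PC3 differed, since 37 of the 52 genes were higher in replicate 1. MKI67 was at 24.0 and 17.5 FPKM there, on either side of the controls. Without that replicate 1 the called genes were 12 lower and 9 higher, and without replicate 2 they were 10 lower and 16 higher. Of the 22 calls, 13 held under every alternative that was run. Those were CCNA2, AURKA, NCAPD2, BUB3, HMMR and CDC20 lower and MYBL2, INCENP, KIF23, KIF2C, ANLN, RACGAP1 and ESPL1 higher. In the other pathway lists 26 of 111 genes were lower and 23 higher, where 16.9% of all tested genes were lower and 19.5% higher. The median log2 fold change of these lists was -0.02. Lowest were the RZZ subunit ZWILCH at -0.99, CENPM at -0.82 and the kinetochore protein NSL1 at -0.81. Highest were LIN54 at 0.56, cyclin F (CCNF) at 0.61 and CDC25A at 0.79 (log2 fold changes).

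The PC3 libraries of siLARP4A and siLARP4B were also tested against each other, since both comparisons above share the siControl libraries. Of the 52 genes, 50 were higher in siLARP4A than in siLARP4B and none was lower. Over all tested genes 26.4% were higher and 27.8% lower. The median log2 difference was 1.14, against -0.01 for all tested genes. RACGAP1 differed most of the called genes, by 1.73 (SE 0.057, edgeR adjusted p = 5.47e-16), followed by MYBL2 at 1.63 and KIF15 at 1.59. AURKA, at 27.7 and 28.5 FPKM in siLARP4A and 25.4 and 26.1 in siLARP4B, differed by only 0.15 (edgeR adjusted p = 0.0378). That AURKA call was lost without PC3 siLARP4A replicate 2 and without either siLARP4B replicate. BUB3 did not pass the test, with a difference of 0.10 (SE 0.048, edgeR adjusted p = 0.0863), nor did SPC25 on its chromosome 2 row. Summed over both rows SPC25 passed it, at 1.96 (edgeR adjusted p = 0.00256) against siLARP4B and 2.07 (edgeR adjusted p = 0.00305) against siControl, with siLARP4A libraries of 44 and 142 fragments.

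In MG63, siLARP4A left a part of the list lower. Of the 52 genes 19 were lower and 2 higher, with 31 not past the threshold, where 13.5% of all tested genes were lower and 13.3% higher. The median log2 fold change was -0.13 against 0 for all tested genes. AURKA was at 45.2 and 49.5 FPKM in siControl and at 27.4 and 27.8 in siLARP4A, a log2 fold change of -0.78 (SE 0.056, edgeR adjusted p = 1.08e-09). HMMR was at 27.7 and 29.2 FPKM against 20.6 and 19.1, a log2 fold change of -0.52. CDC20 was at 116 and 115 FPKM against 81.4 and 84.0, a log2 fold change of -0.48. CCNA2 was at 47.9 and 47.5 FPKM against 35.9 and 35.5, a log2 fold change of -0.42. In all of these the siLARP4A libraries lay below both controls.

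FOXM1 fell in MG63 siLARP4A from 58.8 and 59.4 FPKM to 45.5 and 46.0, a log2 fold change of -0.37 (SE 0.050, edgeR adjusted p = 8.05e-06), while MYBL2 rose from 76.5 and 78.7 to 89.0 and 88.5, a log2 fold change of 0.19 (SE 0.045, edgeR adjusted p = 0.00257). The factor pair of the programme thus moved in opposite directions. CCNB1 was lower at 97.7 and 98.8 FPKM against 114 and 115, a log2 fold change of -0.23. PLK1 was at 95.2 and 96.8 FPKM against 105 in each control, a log2 fold change of -0.13 (edgeR adjusted p = 0.0465), and BUB3 was at -0.15. The calls of PLK1 and BUB3 were lost without any single siControl or siLARP4A library of MG63. CDK1 at -0.11, CCNB2 at -0.15, MKI67 at 0.01 and TOP2A at 0.03 (log2 fold changes) did not pass the test. KIF18A, a motor that dampens chromosome movement, rose with a log2 fold change of 0.25, a call lost without either siControl replicate or siLARP4A replicate 2. SPC25 gave the lowest called value, at -1.74 (edgeR adjusted p = 0.0218), but on the chromosome 2 row that call rested on MG63 siControl replicate 2, with 105 fragments against 17 in replicate 1, and without that library the value was 0.07. Summed over both rows, the controls were close, at 136 and 133 fragments, against 42 and 43 in siLARP4A. The summed log2 fold change was -1.61 (edgeR adjusted p = 0.00549).

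The count of lower genes in MG63 siLARP4A fell to 12 without MG63 siControl replicate 1, 10 without siControl replicate 2, 10 without siLARP4A replicate 1 and 11 without siLARP4A replicate 2. Called lower under every alternative that was run were CCNA2, CCNB1, AURKA, FOXM1, NCAPD2, CDCA8, KIF20A, HMMR and CDC20, and MYBL2 was called higher under every one. The count of higher genes was 1 without either siControl replicate or siLARP4A replicate 2. In the other pathway lists 42 of 111 genes were lower and 5 higher, where 13.5% of all tested genes were lower and 13.3% higher. ZWILCH was lowest at -0.63, followed by DEPDC1 at -0.60 and NSL1 at -0.59, and the inhibitory CDK1 kinase WEE1 was highest at 0.52, above CDC25A at 0.39 and DYRK1A at 0.35 (log2 fold changes).

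In MG63 siLARP4B 17 of the 52 genes were lower and 3 higher, where 16.9% of all tested genes were lower and 18% higher. The median log2 fold change was -0.08 against 0 for all tested genes. By library, the median against the control mean was -0.13 in replicate 1 and -0.01 in replicate 2. RACGAP1 was at 47.1 and 48.0 FPKM in siControl and at 27.6 and 29.5 in siLARP4B, a log2 fold change of -0.72 (SE 0.052, edgeR adjusted p = 6.11e-10). NCAPG was at 16.8 FPKM in each control and at 11.35 and 12.01 in siLARP4B, a log2 fold change of -0.51 (SE 0.059, edgeR adjusted p = 8.59e-07). These genes stood clear of their controls in both libraries. KIF14, a motor of cytokinesis, was at -0.42, HMMR at -0.35 and AURKB at -0.34 (log2 fold changes). Condensin subunits were among the genes that fell, since NCAPH, NCAPD2, SMC2 and SMC4 passed the test beside NCAPG, at -0.33 to -0.19.

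The 3 genes that were higher in MG63 siLARP4B were KIF20A, AURKA and KIF2C. KIF20A was at 74.7 and 76.2 FPKM in siControl and at 86.0 and 89.1 in siLARP4B, a log2 fold change of 0.23 (SE 0.050, edgeR adjusted p = 0.000936). AURKA was at 45.2 and 49.5 FPKM against 53.0 and 52.9, a log2 fold change of 0.18 (SE 0.053, edgeR adjusted p = 0.0118), a call that was lost without MG63 siControl replicate 1. KIF2C, a microtubule depolymerase, was at 0.15 and its call was lost without any single siControl or siLARP4B library of MG63. CDK1 at -0.20 and FOXM1 at -0.15 passed the test. The CDK1 call was lost without MG63 siControl replicate 2 or siLARP4B replicate 1, and the FOXM1 call without any single library of the comparison. CCNB1 at 0.09, CCNB2 at -0.06, PLK1 at -0.01, MYBL2 at -0.01, MKI67 at -0.15, TOP2A at -0.06 and BUB3 at -0.09 (log2 fold changes) did not.

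The MG63 siLARP4B replicates differed across the list. MKI67 was at 18.0 FPKM in replicate 1 and 27.4 in replicate 2, with 25.6 in each control. Without replicate 1, 6 of the 52 genes were lower, and without siControl replicate 2, 11 were. Without siControl replicate 1, 1 gene was higher, and without any one of the other MG63 libraries of this comparison 2 were. SPC25, at -1.73 (edgeR adjusted p = 0.0157), again rested on MG63 siControl replicate 2 on its chromosome 2 row and was at 0.06 without it. Summed over both rows it had 136 and 133 fragments in siControl and 28 and 61 in siLARP4B, and the log2 fold change was -1.62 (edgeR adjusted p = 0.00366). Called lower under every alternative that was run were NCAPG, NCAPD2, AURKB, KIF14, HMMR and RACGAP1, and KIF20A was called higher under every one. In the other pathway lists 38 of 111 genes were lower and 8 higher, where 16.9% of all tested genes were lower and 18% higher. Lowest were the kinetochore proteins SPDL1 at -0.80 and DSN1 at -0.74 and the cohesin subunit STAG1 at -0.69. Highest were CENPW at 0.32, LIN52 at 0.38 and E2F5 at 0.71 (log2 fold changes).

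Set against each other, the MG63 siLARP4A libraries had 15 of the 52 genes lower and 8 higher than siLARP4B, where 22.2% of all tested genes were lower and 21.6% higher. The median log2 difference was -0.02. AURKA differed most, by -0.96 (SE 0.056, edgeR adjusted p = 1.25e-11), followed by KIF20A at -0.50 and CDCA8 at -0.43. RACGAP1 was higher in siLARP4A by 0.60 (SE 0.052, edgeR adjusted p = 5.21e-09), NCAPG by 0.44 and KIF14 by 0.40. Without MG63 siLARP4B replicate 2 the counts were 8 lower and 15 higher, and without siLARP4A replicate 2, 9 were lower.

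**Figure D5:**
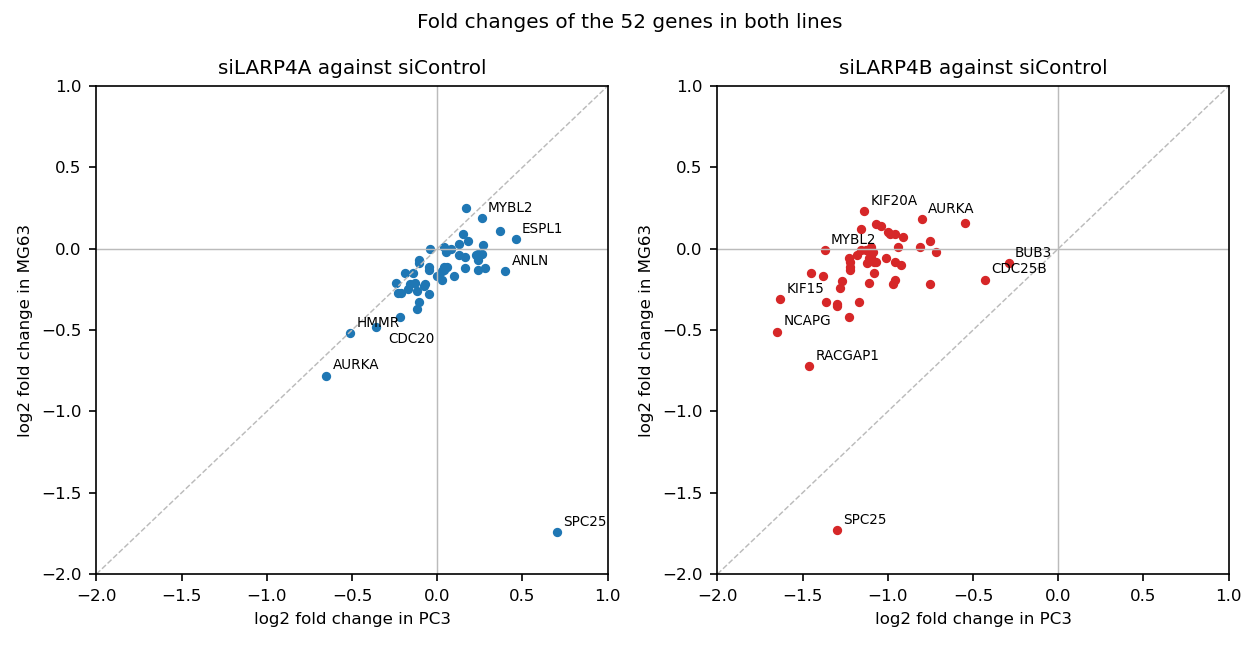
Log2 fold change against siControl of the 52 genes in PC3 (horizontal axis) and MG63 (vertical axis), with siLARP4A on the left, siLARP4B on the right and a dashed line of equal values. After siLARP4A the points other than SPC25 lie near the dashed line, most of them to its right. After siLARP4B the points other than SPC25 lie left of it, with PC3 values from -1.65 to -0.29.

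The effects in the lines were compared by the interaction term, the log2 fold change in PC3 minus that in MG63. For siLARP4B, 51 of the 52 genes had a lower value in PC3 and none a higher one, where 14.4% of all tested genes were lower and 12.5% higher. The median difference was -1.03. KIF20A differed most, by -1.38 (SE 0.084, edgeR adjusted p = 3.95e-10), being lower in PC3 and higher in MG63. MYBL2 differed by -1.36 and KIF15 by -1.32, and CDK1, CCNB1, PLK1, TOP2A and MKI67 by -1.29 to -1.08. CDC25B at -0.25 and BUB3 at -0.20 differed least of the 51. Those calls were lost without PC3 siControl replicate 1 and without PC3 siLARP4B replicate 1. SPC25 did not pass the test.

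Of the 17 genes lower in MG63 siLARP4B, 16 were also among the 51 lower in PC3. With 51 of the 52 genes lower in PC3, any 17 of them would share at least 16, so this count shows nothing about which genes fell in MG63. The 3 genes that were higher in MG63, AURKA, KIF20A and KIF2C, were lower in PC3. Across the 52 genes the PC3 and MG63 fold changes of siLARP4B had a Pearson r of 0.39, and of 0.48 over the 51 genes without SPC25. Genes are not independent replicates, and each point shares its line's control libraries with all others.

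For siLARP4A the effects in the lines differed less. The median difference was 0.15, against 0.03 for all tested genes, and 6 of the 52 genes had a negative difference. The interaction passed the test for 8 of the 52 genes, each higher in PC3 than in MG63, where 5.74% of all tested genes were higher and 5.44% lower. They were FOXM1, SMC4, BIRC5, INCENP, KIF2C, ANLN, RACGAP1 and ESPL1. ANLN rose in PC3 and was at -0.14 in MG63. Its interaction was 0.54 (SE 0.076, edgeR adjusted p = 5.72e-05). RACGAP1 and ESPL1 each differed by 0.40. The count was 13 without PC3 siLARP4A replicate 2, 5 without PC3 siControl replicate 1, MG63 siControl replicate 1 or MG63 siLARP4A replicate 1, 4 without MG63 siLARP4A replicate 2 and 3 without MG63 siControl replicate 2. ANLN, RACGAP1 and ESPL1 were called under every alternative that was run. SPC25 did not pass this test on its chromosome 2 row and passed it when summed over both rows, at 3.68 (edgeR adjusted p = 0.000787).

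AURKA, BUB3, CCNA2, CDC20, HMMR, KIF20A, NCAPD2, PTTG1 and UBE2C fell after siLARP4A in both lines. That is 9 of 9 lower genes in PC3 and 9 of 19 in MG63. Over all tested genes 16.9% were lower in PC3 and 13.5% in MG63. The share of all tested genes lower in both is not given here, so whether this overlap is particular to the list was not tested. MYBL2 was the gene called higher in both, 1 of 13 in PC3 and 1 of 2 in MG63. Of the genes called alike in both lines, AURKA, CCNA2, NCAPD2, HMMR and CDC20 were lower in each under every alternative that was run. MYBL2 was called higher in each under every one. The fold changes of siLARP4A in the lines had a Pearson r of 0.15 across the 52 genes and of 0.81 over the 51 genes without SPC25. AURKA did not differ between the lines beyond error, with an interaction of 0.12 (SE 0.079, edgeR adjusted p = 0.369), nor did HMMR at 0.01 (SE 0.098).

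Some members overlap other genes, and without the strand setting reads from the overlapping stretch cannot be told apart. Besides CDC25C, the largest share was that of CCNA2 with EXOSC9, whose own fragments came to 51.4% of those of CCNA2. Next were KIF20A with CDC23 (43.0%), NCAPG with LCORL (32.1%) and FOXM1 with ITFG2 (22.2%). These shares count all fragments of the other gene, not the reads that could belong to either. The spans, introns included, overlap by 578 bases for CCNA2, 71 for KIF20A, 3667 for NCAPG and 2112 for FOXM1. HMMR overlaps HMMR-AS1, with 15.7%.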

How the data were processed

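Per the labels, poly(A) RNA of 12 libraries was sequenced, 2 biological replicates in each of 6 groups. The submitters' processing notes name FastQC, HISAT2, featureCounts, edgeR and hg38. Their versions and roles, the annotation and the strand setting are not given in the sources used here. The authors deposited 1 table per library with 86394 gene models under 28306 symbols. The columns, per the file headers, are fragment counts, an FPM signal (counts divided by 1 total per library) and FPKM, which is FPM per kilobase of model. Both scalings were checked on the values. The deposited coordinates count starts from 0 and are given here from 1.

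From the deposited counts, models on chromosomes 1 to 22 and X were kept, and each symbol was represented by its most counted model. The 1743 symbols with a second locus were left out, except the member SPC25, which left 26420. The test was the quasi-likelihood F-test of edgeR 4.0.16 (R 4.3.3), after TMM scaling and edgeR's expression filter, in 1 fit with a mean per group and 6 residual degrees of freedom. All 52 members passed the filter, among 15673 genes. Tests were two-sided, with Benjamini-Hochberg adjustment over all tested genes within each of 8 comparisons and a threshold of 0.05. Log2 fold changes are edgeR's, and levels are the deposited FPKM. The biological coefficient of variation was 4.22%. The script was tested on simulated data with known changes.

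The 22 alternatives were RLE scaling, DESeq2 1.42.0, no filter, a mean of at least 5 FPKM in a group, limma 3.58.1 on log2 of the deposited FPKM + 1, only the groups compared, a replicate block, the longest model, a deduplicated table deposited for PC3 siControl replicate 2 alone, each library left out in turn, and SPC25 summed over both its rows, which was added after seeing the data. Named were LARP4 and LARP4B, 10 members always, the highest and lowest member of each role in PC3 siLARP4B, and the 3 highest and 3 lowest called members and pathway genes of the other comparisons. Other members are examples of their role. The members and lists were chosen with earlier results of these data known. Promoter sequences are RefSeq's, build GRCh38.p14. Figures were drawn with matplotlib 3.10.9.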

Additional observations from a re-analysis of the deposited data

Results flagged for a closer look

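The 6 members below had the largest called differences between the lines, 3 per siRNA. They were picked by the same test that is quoted, the interaction term of the edgeR fit (effect in PC3 minus effect in MG63, on the log2 scale). After siLARP4B 51 of the 52 genes were called lower by it, with a median of -1.03, where 14.4% of all tested genes were. Its 3 genes are thus the end of a shift of nearly the whole list. After siLARP4A the difference was 0.54 for ANLN (adjusted p = 5.72e-05), 0.40 for RACGAP1 (adjusted p = 0.00082) and 0.40 for ESPL1 (adjusted p = 0.00425). All 3 rose in PC3 and were not past the threshold in MG63. After siLARP4B the difference was -1.38 for KIF20A (adjusted p = 3.95e-10), -1.36 for MYBL2 (adjusted p = 1.68e-11) and -1.32 for KIF15 (adjusted p = 5.02e-07). KIF20A was lower in PC3 and higher in MG63, MYBL2 was lower in PC3 and at -0.01 in MG63, and KIF15 was lower in both. All 6 differences were called under every alternative that was run, each library left out in turn included.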

How the results depend on the processing

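Every call in PC3 siLARP4B kept its direction and its side of the threshold under all alternatives, apart from SPC25, which passed it under none. The median log2 fold change of the 52 genes there was -1.11, and it was -1.15 with no filter, -1.07 with a mean of at least 5 FPKM, -1.04 with limma, -1.15 with only the groups compared and -1.14 with the deduplicated table. With limma the median was 1.03 for PC3 siLARP4A against siLARP4B and -0.92 for the siLARP4B difference between lines. With only the groups compared, 8 genes were higher in PC3 siLARP4A (13 in the full fit) and 29 lower in MG63 siLARP4A (19 in the full fit). With DESeq2, 1 gene was higher in MG63 siLARP4A. For PC3 siLARP4B the median of all tested genes was 0.04 in the full fit. It was 0 with no filter and with only the groups compared, and 0.01 with the deduplicated table. Minus that median, the 52 genes stood at -1.15 under each of these alternatives. The causes of the shifts between settings were not tested.

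With each library left out in turn, the PC3 siLARP4B median ran from -1.12 to -1.08. The MG63 siLARP4B median, minus that of all tested genes, was -0.01 without siLARP4B replicate 1 and -0.11 without siLARP4B replicate 2. In MG63 siLARP4A the lower genes ran from 10 to 12, the higher from 1 to 2 and the median from -0.12 to -0.08. In MG63 siLARP4B the lower genes ran from 6 to 20 and the higher from 1 to 2. For MG63 siLARP4A against siLARP4B the lower genes ran from 8 to 15 and the higher from 6 to 15. For the siLARP4A difference between lines the higher genes ran from 3 to 13. On its chromosome 2 row, SPC25 changed sign without MG63 siControl replicate 2, to 0.07 (edgeR adjusted p = 0.971) after siLARP4A and 0.06 (edgeR adjusted p = 0.974) after siLARP4B in MG63. Over the libraries left out, it ran from -2.47 to 0.07 after siLARP4A and from -2.48 to 0.06 after siLARP4B. Summed over both its rows, it kept its calls in MG63, at -1.61 (edgeR adjusted p = 0.00549) and -1.62 (edgeR adjusted p = 0.00366). The sum added calls in PC3 siLARP4A (2.07, edgeR adjusted p = 0.00305), in PC3 siLARP4A against siLARP4B (1.96, edgeR adjusted p = 0.00256) and in the siLARP4A difference between lines (3.68, edgeR adjusted p = 0.000787).

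With replicate number as a block within each line, 51 genes were lower in PC3 siLARP4B, 9 lower and 13 higher in PC3 siLARP4A, 18 lower and 2 higher in MG63 siLARP4A, and 17 lower and 2 higher in MG63 siLARP4B. Replicate differences of same-numbered libraries correlated at -0.05 to 0.06 across genes. With a single difference per group, this cannot tell whether same-numbered libraries were handled together, which the labels used here do not give. With 2 libraries per group, small fold changes near the threshold are the least certain.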
